A study of Homo sapiens with 4 samples.

Results

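The mitochondrial ribosomal protein (MRP) mRNAs are the nuclear transcripts that code for the proteins of the mitochondrial ribosome. Members were the rows of the deposited count table whose symbol is MRPL or MRPS, a number and at most 1 further letter, and that reached 10 counts in 2 or more libraries. All 78 rows with such a symbol passed this filter, out of 56303 rows in the table and 19210 compared features, so 0 members were lost to it. By symbol, 49 are large subunit (MRPL) and 29 small subunit (MRPS) genes. Current structures put MRPS18A and MRPS30 in the large subunit, and place MRPS36 in the 2-oxoglutarate dehydrogenase complex instead of the ribosome.

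The libraries came from Huh7 cells, a human hepatocellular carcinoma line. The groups were an RBM39 immunoprecipitate (IP) and an input from cells that carried a plasmid with a hairpin against RBM39 (shRBM39), and an IP and an input from cells with a control hairpin (shControl). Each group was 1 library, so no pairwise difference below has a replicate check, and the intervals given cover counting error only. RBM39 is a nuclear RNA-binding protein of the U2AF-related family that takes part in splicing, and the IP used an antibody against it. An IP with a control antibody was not analysed here, so recovery over input cannot be told apart from recovery by the beads or the antibody alone.

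Mitochondrial ribosomes translate the few proteins that the mitochondrial genome encodes, all of them parts of the respiratory chain and ATP synthase. Their rRNAs are transcribed in mitochondria, but all their proteins are made in the cytosol from nuclear mRNAs and imported. Some of these proteins descend from bacterial ribosomal proteins, and others have no bacterial counterpart and were added to the ribosome in the course of mitochondrial evolution. Liver cells are rich in mitochondria and depend on this supply of respiratory subunits.

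The total counts were 45812488 in the shRBM39 IP, 22249581 in the shRBM39 input, 41387762 in the shControl IP and 20858382 in the shControl input. RBM39 itself had 370.3 CPM, counts scaled to a common library total, in the shRBM39 input and 404 CPM in the shControl input, a log2 ratio of -0.13 (95% counting interval -0.17 to -0.08). No protein was measured in these libraries, and whether the knockdown took effect or the labels hold cannot be settled from these counts, so shRBM39 and shControl name the labelled groups. RBM39 mRNA was enriched over input in the IP of both cultures, at log2 2.58 in shRBM39 cells and 1.36 in shControl cells. All 8 hepatocyte markers checked, among them ALB and AFP, passed the filter, and of 8 markers of blood, endothelial, stromal, muscle and glial cells 3 passed it, with at most 8.60 CPM.

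CPM values here are scaled by TMM, a method that sets the bulk of genes level between libraries, and carry no transcript length, so levels are compared only between libraries for 1 gene. The members together held 0.505% of the counts in the shRBM39 IP (95% Wilson interval 0.503% to 0.507%) and 0.475% in the shRBM39 input (0.472% to 0.478%). They held 0.632% in the shControl IP (0.630% to 0.635%) and 0.483% in the shControl input (0.480% to 0.486%). In each culture the share was higher in the IP. Summed large subunit levels were 2648 CPM in the shRBM39 IP and 2382 CPM in its input, and 3029.6 CPM in the shControl IP and 2424 CPM in its input. Summed small subunit levels were 2944 CPM in the shRBM39 IP and 2478 CPM in its input, and 2763 CPM in the shControl IP and 2249 CPM in its input. A member's count in 1 library lay between 112 and 14504. Of the counts from 3 to 6 in a library 71.4% to 75.6% were even, which is how counts look when the mates of a read pair are counted singly, and the intervals are then too narrow. In bulk RNA a lower level can mean fewer cells that make a transcript or less of it per cell, and these cannot be told apart.

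Some members overlap other genes or have pseudogene copies, and the counts do not show whether reads were shared or split between them. Of the 77 members with a RefSeq gene entry, 32 overlap another annotated gene and 45 do not, and the strand setting of the counting is not given in the sources used here. Copies of MRPS31 annotated as pseudogenes held up to 71.5% of the summed counts of MRPS31 and its copies in a library. By the same measure the copies of MRPL53 held up to 3.23% and the copies of MRPS36 up to 1.72%. For the other 75 members annotated copies held under 1% of such a sum.

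In shRBM39 cells, MRP mRNAs were on the whole slightly above their input level in the RBM39 IP. Their median log2 ratio was 0.23 (quartiles 0.00 to 0.43), against 0.02 over all 19210 compared features and 0.08 over the 11218 protein-coding features with at least 200 summed counts. The counting interval lay above equality for 48 members (61.5%) and below it for 12 (15.4%), beside 32.9% and 30% of all features. Of the same protein-coding features, which like the members are well counted, 43.0% lay above and 33.4% below. No member was 2-fold higher or lower with an interval that excluded equality, beside 5.29% of all features called higher and 9.00% called lower on this rule. At 1.5-fold 9 members were higher and 3 lower, beside 15.5% and 17.4% of all features. With libraries scaled to their total counts, which moved the median of all features by -0.11, the split was 38 members above and 20 below.

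In shControl cells, the same mRNAs stood further above input. The median log2 ratio was 0.39 (quartiles 0.10 to 0.60), against -0.01 over all compared features and 0.10 over the well-counted coding ones. The interval lay above equality for 58 members (74.4%) and below it for 11 (14.1%), beside 34.1% and 33.1% of all features. Of the well-counted coding features 45.2% lay above and 34.0% below. A single member, MRPL28, was at least 2-fold higher, and none was 2-fold lower, beside 7.70% and 11.3% of all features. At 1.5-fold 21 were higher and 2 lower, beside 18.9% and 20.6%. The members' median stood 0.21 above that of all features in shRBM39 cells and 0.40 above it in shControl cells, distances that the library scaling does not change. Their single ratios ran from -0.93 to 0.97 in shRBM39 cells and from -0.79 to 1.19 in shControl cells.

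**Figure D1:**
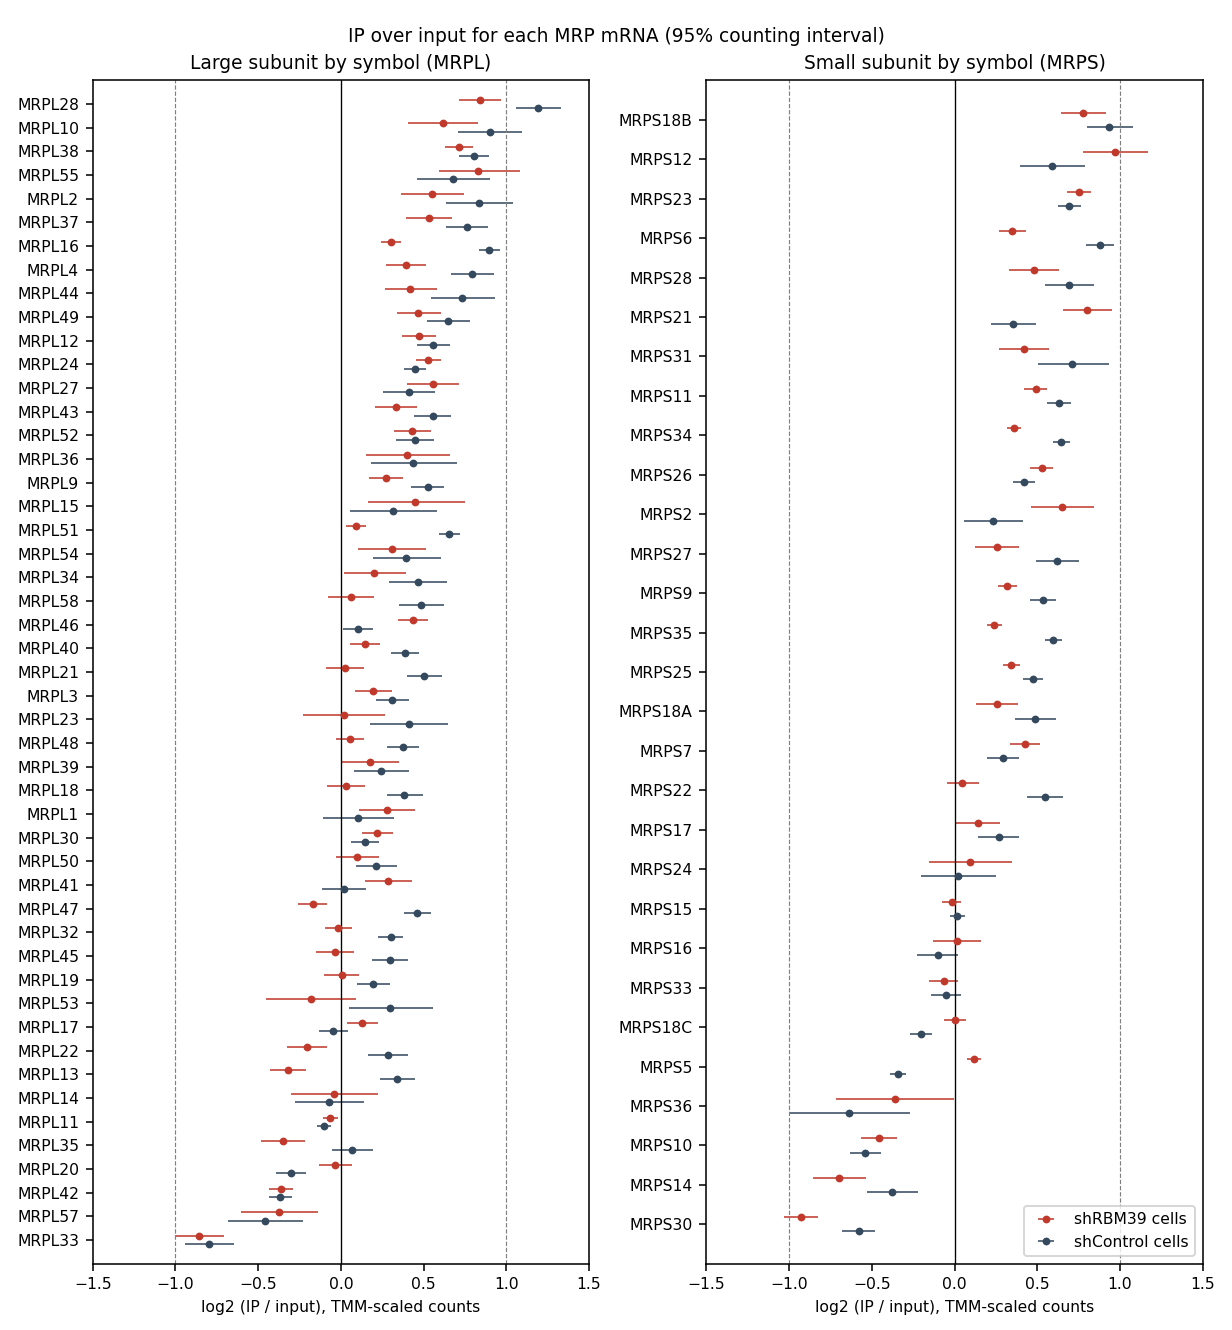
Log2 ratio of IP over input for each of the 49 MRPL (left panel) and 29 MRPS (right panel) mRNAs, with shRBM39 cells in red and shControl cells in dark blue. Points are single libraries compared, bars are 95% counting intervals and dashed lines mark 2-fold. MRPL28 in shControl cells lies beyond the 2-fold line, and MRPS30 and MRPL33 lie farthest below input.

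Both cultures were then fitted together, with the culture as a term (edgeR's quasi-likelihood test, Benjamini-Hochberg adjustment over all 19210 features). In this fit 29 members were higher in the IP and 4 lower at an adjusted p under 0.05, and 45 were not called. These are 37.2% and 5.13% of the members, beside 19.2% and 17.6% of all features, and 26.7% and 19.2% of the well-counted coding features. DESeq2 called 21 members higher and 3 lower, beside 13.5% and 10.9% of all features, and all 24 are among edgeR's 33. The fit has 1 residual degree of freedom and takes the agreement of the 2 cultures as its only replication. Without the culture term, edgeR called 0 members and 0 features at all, with 15 members higher and 3 lower at an unadjusted p under 0.05. With any 1 library left out as well, the culture term cannot be kept, and these fits of 3 libraries without it also called 0 members, with 2 to 5 higher and 1 to 2 lower unadjusted. The loss of calls in them cannot be put down to the library left out. The labels name no replicate cultures. The spread behind the p-values of the fit with the culture term is the change of IP over input between shRBM39 and shControl cells. Any effect of the hairpin on recovery is part of that spread and cannot be told apart from technical spread.

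Among large subunit proteins conserved with bacteria, the mRNA of MRPL28 stood highest over input. MRPL28 is a core protein of the large subunit that was first described as an antigen of melanoma cells. It had 55.6 CPM in the shRBM39 IP and 31.1 CPM in the shRBM39 input, and 56.9 CPM in the shControl IP and 24.9 CPM in the shControl input. Both IP libraries were above both inputs, by 1.79-fold in shRBM39 cells and 2.28-fold in shControl cells, and edgeR called it higher (log2 1.02, adjusted p = 4.47e-05). Its locus overlaps an uncharacterised gene. MRPL10 and MRPL12 form the stalk that recruits translation factors to the ribosome. MRPL10 had 17.8 CPM in the shRBM39 IP and 11.6 CPM in the shRBM39 input, and 24.3 CPM in the shControl IP and 13.0 CPM in the shControl input, and it rose in the IP (log2 0.76, adjusted p = 0.00125 in edgeR). MRPL12 had 67.6 CPM in the shRBM39 IP and 48.6 CPM in the shRBM39 input, and 73.9 CPM in the shControl IP and 50.1 CPM in the shControl input, and it rose as well (log2 0.52, adjusted p = 0.00911 in edgeR). MRPL11, which binds the rRNA at the base of that stalk, did not follow them. It had 269 CPM in the shRBM39 IP and 281 CPM in the shRBM39 input, and 321 CPM in the shControl IP and 344 CPM in the shControl input, nearly level within each culture, and was not called (edgeR log2 -0.08, adjusted p = 0.737).

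A further 4 large subunit mRNAs rose in the edgeR fit. MRPL2 lies close to the peptidyl transferase centre and rose in the IP, with log2 ratios of 0.55 (0.37 to 0.75) in shRBM39 and 0.83 (0.63 to 1.04) in shControl cells (edgeR adjusted p = 0.00248). MRPL4, which lines the exit tunnel, rose at 0.39 (0.28 to 0.51) in shRBM39 and 0.79 (0.67 to 0.93) in shControl cells (edgeR adjusted p = 0.00465). MRPL16, whose bacterial counterpart touches tRNAs in the large subunit, rose at 0.30 (0.24 to 0.36) in shRBM39 and 0.90 (0.83 to 0.96) in shControl cells (edgeR adjusted p = 0.011). MRPL55 rose at 0.83 (0.59 to 1.08) in shRBM39 and 0.68 (0.46 to 0.90) in shControl cells (edgeR adjusted p = 0.00196). Of the 30 conserved large subunit mRNAs 10 rose in the edgeR fit (33.3%) and 1 fell (3.33%). The shares were 19.2% and 17.6% over all features and 26.7% and 19.2% over the well-counted coding ones.

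The one that fell was MRPL33, whose bacterial counterpart lies close to the site where tRNAs leave the large subunit. It had 18.6 CPM in the shRBM39 IP and 33.7 CPM in the shRBM39 input, and 17.9 CPM in the shControl IP and 31.0 CPM in the shControl input. Both IP libraries were lower than both inputs, by log2 -0.86 (-1.0 to -0.71) in shRBM39 cells and -0.79 (-0.94 to -0.64) in shControl cells, and edgeR called it lower (log2 -0.83, adjusted p = 0.00028). It overlaps no annotated gene and is the lowest of all members in shControl cells. MRPL20, a protein bound early to the large rRNA, was at -0.04 (-0.13 to 0.07) in shRBM39 and -0.30 (-0.39 to -0.21) in shControl cells and was not called (edgeR adjusted p = 0.398).

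The large subunit proteins grouped as specific to mitochondria covered a like range, with 6 risen (28.6%) and 1 fallen (4.76%) of 21. The shares were 19.2% and 17.6% over all features and 26.7% and 19.2% over the well-counted coding ones. This group counts MRPS18A, although it descends from a bacterial protein. MRPL38 had 109 CPM in the shRBM39 IP and 66.8 CPM in the shRBM39 input, and 97.6 CPM in the shControl IP and 55.9 CPM in the shControl input, and both IP libraries were above both inputs (edgeR log2 0.76, adjusted p = 0.000596). MRPL37 and MRPS30 are related in sequence and both sit in the large subunit, but their mRNAs went opposite ways. MRPL37 had 38.2 CPM in the shRBM39 IP and 26.4 CPM in the shRBM39 input, and 51.5 CPM in the shControl IP and 30.4 CPM in the shControl input, and rose (edgeR log2 0.65, adjusted p = 0.00192). MRPS30 had 37.5 CPM in the shRBM39 IP and 71.5 CPM in the shRBM39 input, and 42.7 CPM in the shControl IP and 63.8 CPM in the shControl input, and fell (edgeR log2 -0.75, adjusted p = 0.000633). In shRBM39 cells MRPS30 was the member farthest below input, at 0.525 times its input level. MRPL44, whose fold resembles that of RNase III enzymes, rose at 0.42 (0.26 to 0.58) in shRBM39 and 0.73 (0.54 to 0.93) in shControl cells (edgeR adjusted p = 0.00762). MRPL42 was below input in both cultures, at -0.36 (-0.43 to -0.29) and -0.37 (-0.43 to -0.30) in shRBM39 and shControl cells, and was not called (edgeR adjusted p = 0.0697).

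Among the 16 conserved small subunit mRNAs 7 rose (43.8%) and 2 fell (12.5%). The shares were 19.2% and 17.6% over all features and 26.7% and 19.2% over the well-counted coding ones. MRPS12, a protein of the decoding centre, had 24.1 CPM in the shRBM39 IP and 12.3 CPM in the shRBM39 input, and 19.6 CPM in the shControl IP and 13.0 CPM in the shControl input. It rose (edgeR log2 0.78, adjusted p = 0.00107), and in shRBM39 cells it was the member highest over input. MRPS21 had 39.0 CPM in the shRBM39 IP and 22.3 CPM in the shRBM39 input, and 35.5 CPM in the shControl IP and 27.8 CPM in the shControl input, and rose too (edgeR log2 0.58, adjusted p = 0.00664). MRPS6 rose at 0.35 (0.27 to 0.43) in shRBM39 and 0.88 (0.80 to 0.97) in shControl cells (edgeR adjusted p = 0.00578), and its locus overlaps SLC5A3, so that reads of the 2 genes cannot be told apart where their exons coincide. The 2 that fell are proteins of the small subunit head. MRPS14 had 17 CPM in the shRBM39 IP and 27.6 CPM in the shRBM39 input, and 19.6 CPM in the shControl IP and 25.4 CPM in the shControl input (edgeR log2 -0.54, adjusted p = 0.0109, and adjusted p = 0.0639 in DESeq2, over the threshold). MRPS10 had 39.5 CPM in the shRBM39 IP and 54.3 CPM in the shRBM39 input, and 52.4 CPM in the shControl IP and 76.1 CPM in the shControl input (edgeR log2 -0.50, adjusted p = 0.0109). In both genes each IP library was lower than its own input, while for MRPS10 the shControl IP was close to the shRBM39 input.

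None of the 10 small subunit mRNAs grouped as specific to mitochondria fell, and 6 rose (60%). Over all features 19.2% rose and 17.6% fell, and over the well-counted coding ones 26.7% and 19.2%. MRPS18B and MRPS23 led this group, although MRPS18B descends from a bacterial protein. MRPS18B had 46.8 CPM in the shRBM39 IP and 27.3 CPM in the shRBM39 input, and 47.1 CPM in the shControl IP and 24.6 CPM in the shControl input (edgeR log2 0.86, adjusted p = 0.000168). MRPS23 had 166 CPM in the shRBM39 IP and 98.3 CPM in the shRBM39 input, and 166 CPM in the shControl IP and 103 CPM in the shControl input (edgeR log2 0.72, adjusted p = 0.00129). In both genes the 2 IP libraries were nearly equal and stood above both inputs. MRPS34, with 350.4 CPM in the shRBM39 IP the member of the highest count, rose as well (edgeR log2 0.50, adjusted p = 0.0298), although it overlaps EME2. MRPS33 had log2 ratios of -0.07 (-0.15 to 0.02) in shRBM39 and -0.05 (-0.14 to 0.04) in shControl cells and was not called.

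**Figure D2:**
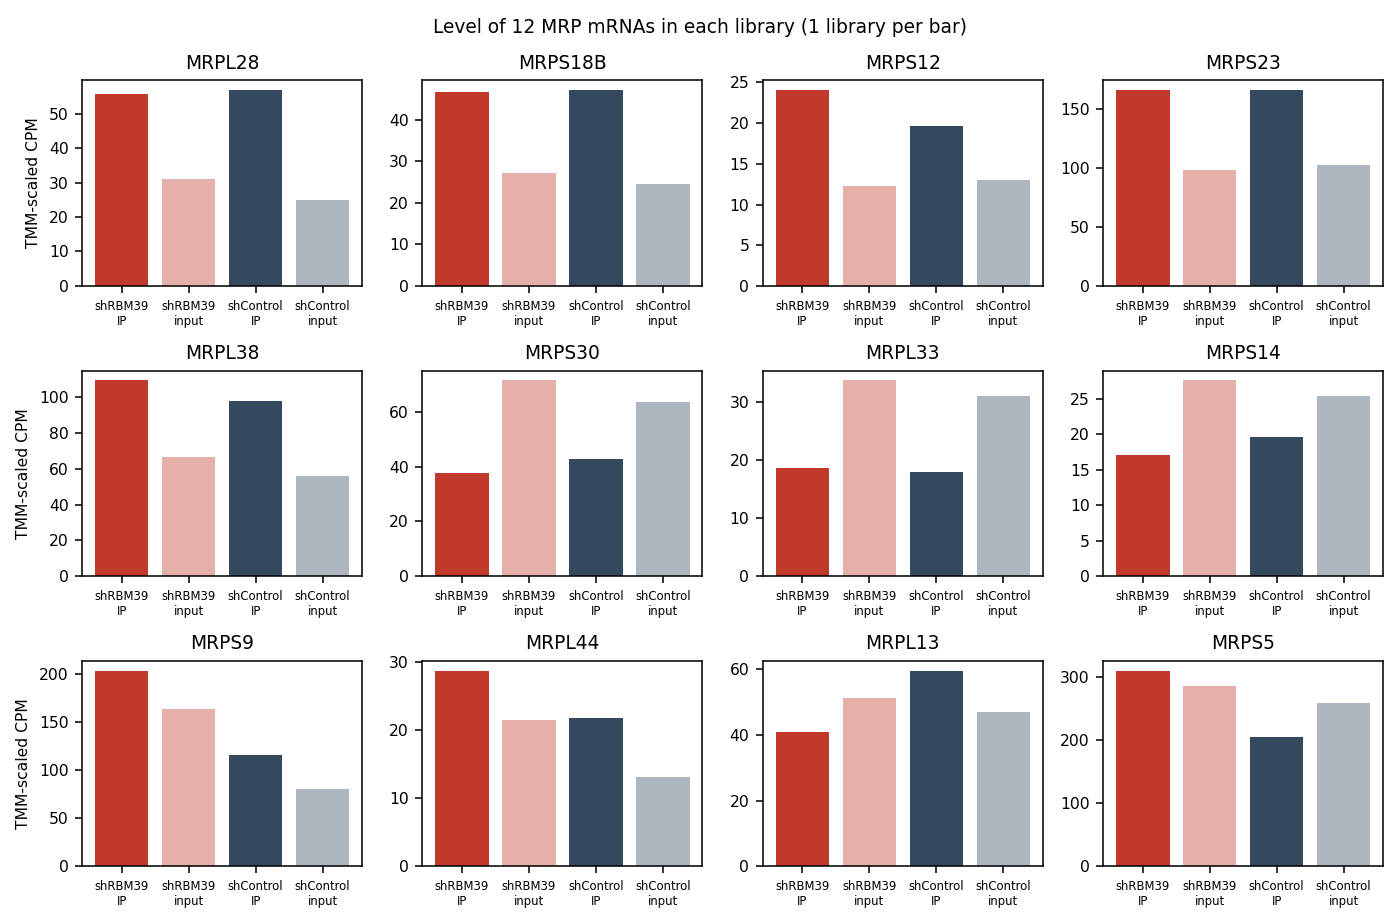
TMM-scaled CPM of 12 MRP mRNAs in the 4 libraries, 1 library per bar, with each y axis from 0 and its own scale. MRPL28, MRPS18B, MRPS12, MRPS23 and MRPL38 are higher in both IP libraries than in both inputs, MRPS30, MRPL33 and MRPS14 are lower in both, and MRPL13 and MRPS5 differ in direction between shRBM39 and shControl cells.

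The 3 paralogs of MRPS18 shared no common pattern. They descend from 1 bacterial protein, and in current structures MRPS18C takes the site of the bacterial one, MRPS18B another site of the small subunit, and MRPS18A a site in the large subunit. MRPS18A was at log2 0.26 (0.13 to 0.39) in shRBM39 and 0.49 (0.36 to 0.61) in shControl cells, just over the threshold (edgeR adjusted p = 0.0544). MRPS18B was at 0.78 (0.65 to 0.91) in shRBM39 and 0.93 (0.80 to 1.08) in shControl cells. MRPS18C was at 0.00 (-0.07 to 0.07) in shRBM39 and -0.21 (-0.27 to -0.14) in shControl cells, and was not called (edgeR adjusted p = 0.645). MRPS18A overlaps RSPH9 and MRPS18C overlaps ABRAXAS1, while MRPS18B overlaps no annotated gene.

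MRPS36, the member outside the ribosome, had few counts and was below input in both cultures, at -0.36 (-0.71 to 0.00) in shRBM39 and -0.64 (-0.99 to -0.27) in shControl cells. It was not called (edgeR adjusted p = 0.101).

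The medians of large and small subunit mRNAs, as their symbols assign them, were close to each other, and were not tested. In shRBM39 cells the median log2 ratio was 0.20 for the 49 large and 0.26 for the 29 small subunit genes, a difference of -0.06. In shControl cells it was 0.39 for the large and 0.42 for the small ones, a difference of -0.03. The edgeR fit called 16 large subunit genes higher and 1 lower (32.7% and 2.04%). It called 13 small subunit genes higher and 3 lower (44.8% and 10.3%). The shares were 19.2% and 17.6% over all features and 26.7% and 19.2% over the well-counted coding ones. The quartiles in shControl cells were 0.20 to 0.55 for the large and -0.05 to 0.62 for the small subunit genes. With genes assigned by current structures instead of by symbol, the difference of medians was -0.13 in shRBM39 and -0.06 in shControl cells. Between the classes, the 10 small subunit mRNAs grouped as mitochondria-specific, MRPS18B among them, had the highest medians over input. These were 0.35 in shRBM39 and 0.61 in shControl cells. The 16 conserved small subunit mRNAs had 0.23 and 0.25 there. This split by conservation was added after the values were seen, and genes are not replicates.

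Across the 78 members the log2 ratios of the 2 cultures, which share no library, had a Pearson correlation of 0.764 and a Spearman correlation of 0.714. For the 11218 well-counted coding features the values were 0.808 and 0.822. Each gene keeps its length and base composition in both cultures, so the points are not independent. The interval was above equality in both cultures for 44 of the 78 members and below it in both for 8, beside 25.4% and 22.5% of all features. The span of a member's gene had Spearman correlations of -0.15 with the ratio in shRBM39 cells and 0.05 with that in shControl cells (n = 77).

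**Figure D3:**
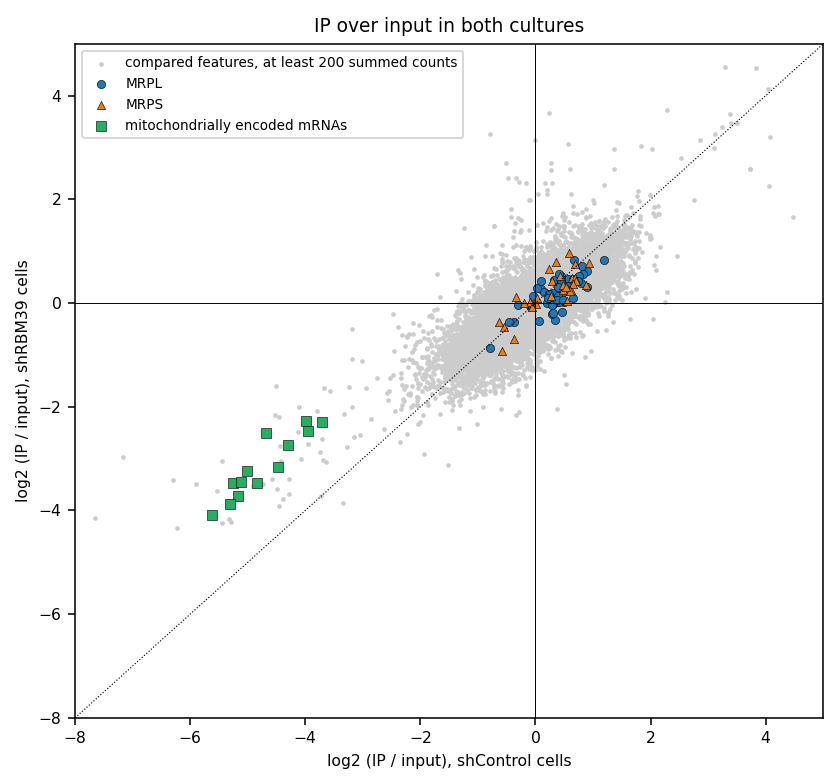
Log2 IP over input in shRBM39 cells (y axis) against that in shControl cells (x axis), with compared features of at least 200 summed counts in grey, MRPL mRNAs as blue circles, MRPS mRNAs as orange triangles and the 13 mitochondrially encoded mRNAs as green squares; the dotted line is equality. Most MRP mRNAs lie above 0 on both axes and near 0, and the mitochondrially encoded mRNAs lie far below input in both cultures and above the line of equality.

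The next comparison asks whether recovery over input differed with the hairpin. For MRP mRNAs recovery was on the whole lower in shRBM39 than in shControl cells. The median difference of the log2 ratios, shRBM39 minus shControl, was -0.13 (quartiles -0.32 to 0.08), against 0.00 for all features and -0.04 for the well-counted coding ones. The interval of the difference lay above 0 for 11 members (14.1%) and below it for 38 (48.7%), beside 19.7% and 21.5% of all features. Of the well-counted coding features 21.8% lay above and 28.7% below. With counts halved, to allow for mates counted singly, 6 members lay above (7.69%) and 25 below (32.1%), beside 12.9% and 15.0% of all features. No member differed by 2-fold, beside 4.39% of all features called higher and 2.74% called lower. At 1.5-fold 0 members were higher and 3 lower, beside 7.95% and 6.83% of all features. Scaling to total counts moved the median of all features by -0.19 and gave 3 members above and 54 below, while the members' distance from that median stayed at -0.13. Hepatocyte markers, the genes that mark the liver cell origin of Huh7, had a median difference of -0.71, with the interval below 0 for 7 of 8, and AFP was at -1.17 and ALB at -1.03. Their part in the MRP difference was not tested. The mRNA of RBM39 had a difference of 1.23. All 13 mitochondrially encoded mRNAs, far below input in both cultures, were called higher in the difference, with a median of 1.52. Over all features the log2 ratios spread less in shRBM39 cells, with an interquartile range of 0.92 against 1.06 in shControl cells. Whether the MRP difference is particular to these mRNAs was not tested.

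The differences furthest below 0 were in MRPL13 and MRPL47. MRPL13, a conserved large subunit protein, had 41.0 CPM in the shRBM39 IP and 51.2 CPM in the shRBM39 input, and 59.5 CPM in the shControl IP and 47.0 CPM in the shControl input. Its IP was below its input in shRBM39 cells, at log2 -0.32 (-0.43 to -0.21), and above it in shControl cells, at 0.34 (0.24 to 0.45), a difference of -0.66 (-0.81 to -0.51). MRPL47, a protein beside the exit of the tunnel that overlaps ACTL6A in the genome, had 66.8 CPM in the shRBM39 IP and 75.2 CPM in the shRBM39 input, and 102 CPM in the shControl IP and 73.7 CPM in the shControl input. It too was below input in shRBM39 cells, at -0.17 (-0.26 to -0.08), and above it in shControl cells, at 0.46 (0.38 to 0.55). For both genes the inputs were close to each other and the IP libraries were not.

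In MRPL16, MRPL51, MRPS6 and MRPS22 recovery was lower in shRBM39 cells without a change of direction. The difference was -0.59 (-0.68 to -0.51) for MRPL16 and -0.56 (-0.65 to -0.47) for MRPL51, a protein specific to mitochondria. It was -0.53 (-0.65 to -0.42) for MRPS6 and -0.50 (-0.64 to -0.35) for MRPS22, another mitochondria-specific protein. In each of the 4 genes the shRBM39 input was higher than the shControl input as well, with input log2 ratios of 0.32, 0.39, 0.28 and 0.47 in that order. The input enters both the difference and this ratio, so these are not separate observations. MRPL35, a small conserved protein, was at -0.35 (-0.48 to -0.22) in shRBM39 and 0.07 (-0.06 to 0.19) in shControl cells.

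The differences above 0 were led by MRPS5, MRPS21, MRPS2 and MRPS12, all conserved small subunit proteins, and by MRPL46. MRPS5, a protein near the path by which mRNA enters the ribosome, had 309 CPM in the shRBM39 IP and 285 CPM in the shRBM39 input, and 204 CPM in the shControl IP and 258 CPM in the shControl input. Its IP was above its input in shRBM39 cells, at 0.12 (0.07 to 0.16), and below it in shControl cells, at -0.34 (-0.39 to -0.29), a difference of 0.46 (0.39 to 0.52). The difference was 0.45 (0.25 to 0.65) for MRPS21, 0.42 (0.16 to 0.67) for MRPS2 and 0.38 (0.11 to 0.66) for MRPS12. It was 0.33 (0.20 to 0.46) for MRPL46, 0.27 (0.13 to 0.40) for MRPL20 and 0.21 (0.11 to 0.30) for MRPS18C. The median difference was -0.19 for large and -0.12 for small subunit genes. By class it was 0.08 for the conserved small subunit mRNAs and -0.22 for the conserved large subunit ones. It was also -0.22 for the mitochondria-specific large and for the mitochondria-specific small subunit mRNAs, and no test of these medians was made. The large minus small subunit median of this difference was -0.07 by symbol and -0.14 by current structures.

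The input libraries compare the RNA of shRBM39 with that of shControl cells without the IP. MRP mRNAs were level there on the whole. Their median log2 ratio was -0.02 (quartiles -0.16 to 0.14), against -0.01 for all features. The interval lay above equality for 20 members (25.6%) and below it for 21 (26.9%), beside 28.5% and 26.7% of all features. Of the well-counted coding features 37.8% lay above and 30.5% below. MRPS31 and MRPS9 were at least 2-fold higher in shRBM39 cells and no member was 2-fold lower, beside 5.10% and 5.74% of all features. At 1.5-fold 4 were higher and 1 lower, beside 12.7% and 11.9%. Under total-count scaling the split was 17 above and 29 below.

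MRPS9, a conserved protein of the small subunit head, had 163 CPM in the shRBM39 input and 80.1 CPM in the shControl input, a log2 ratio of 1.03 (0.95 to 1.11). Its IP libraries were apart in the same direction, at 204 CPM in shRBM39 and 116 CPM in shControl cells. MRPS9 overlaps MRPS9-AS1 and MRPS9-AS2, antisense genes, and without the strand setting their reads cannot be told apart from its own. MRPS31 had 23.2 CPM in the shRBM39 input and 10.8 CPM in the shControl input, a log2 ratio of 1.10 (0.88 to 1.34), and its pseudogene copies have counts of their own, so this value is uncertain in that it is not known whether reads were split between them. MRPL44 was at 0.71 (0.49 to 0.93) and MRPL1, the protein of the stalk beside the tRNA exit, at 0.62 (0.39 to 0.85). MRPS34 was at 0.52 (0.46 to 0.57) and MRPL48 at 0.48 (0.37 to 0.59). All 6 were higher in the shRBM39 input.

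Lower in the shRBM39 input were MRPS15, MRPS10, MRPS16, MRPL14, MRPL30 and MRPL11. MRPS15, a small protein that joins the small subunit early in assembly, had 177 CPM in the shRBM39 input and 257 CPM in the shControl input, a log2 ratio of -0.54 (-0.60 to -0.48). Its IP libraries matched their inputs in both cultures. The log2 ratio was -0.49 (-0.60 to -0.38) for MRPS10, -0.50 (-0.65 to -0.34) for MRPS16 and -0.62 (-0.89 to -0.35) for MRPL14, which faces the small subunit. It was -0.35 (-0.45 to -0.24) for MRPL30 and -0.29 (-0.34 to -0.24) for MRPL11. Median ratios were -0.04 for large and 0.04 for small subunit genes, and 0.26 for the 10 mitochondria-specific small subunit genes.

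**Figure D4:**
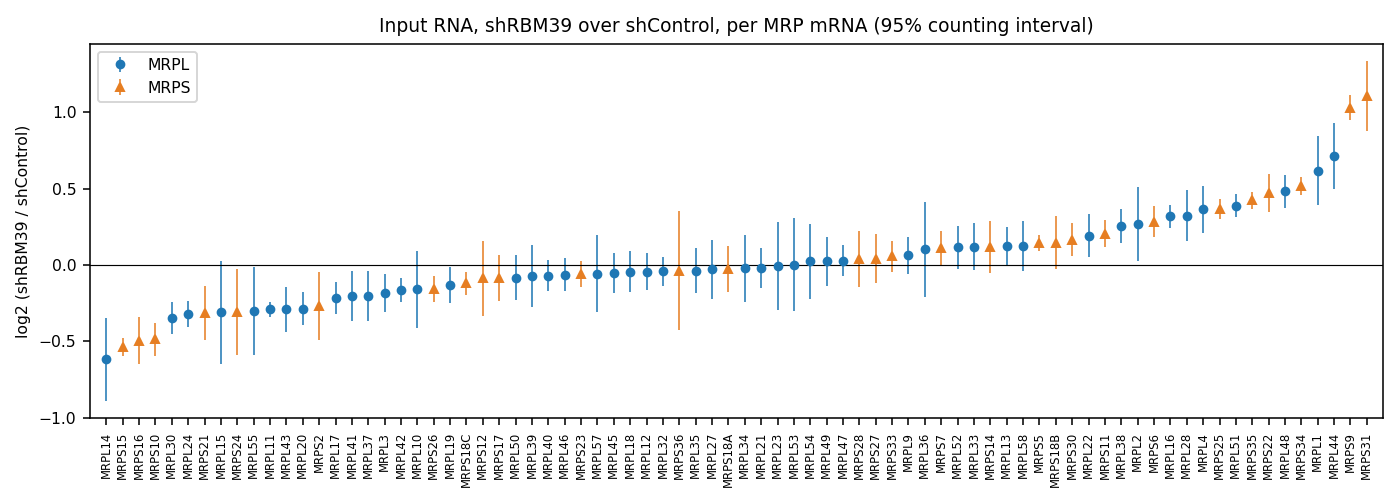
Log2 ratio of the shRBM39 input over the shControl input for each of the 78 MRP mRNAs in ascending order, with 95% counting intervals; blue circles are MRPL and orange triangles MRPS mRNAs. MRPS31 and MRPS9 lie above 1, and MRPL14, MRPS15, MRPS16 and MRPS10 lie lowest.

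The sequence upstream of the members' start sites was searched for short strings, and each string was absent from most of the members' windows. RefSeq windows (GRCh38.p14) of the 250 bases before the annotated start were at hand for 69 of the 78 members and for 27305 genes in all, of which 15843 are protein coding. The letters CCGGAAG, a site of ETS factors such as the nuclear respiratory factor GABP, occurred on either strand in 23 of the 69 windows (33.3%), against 8.82% of all windows and 11.8% of the coding ones. GCGCATG, the core of an NRF1 site, occurred in 7 (10.1%), against 3.96% of all and 5.04% of coding windows. AAGATGG, the core of a YY1 site, also occurred in 7 (10.1%), against 3.77% of all and 3.35% of coding windows. CCAAT, the box bound by NF-Y, occurred in 19 (27.5%), against 33.0% of all and 34.5% of coding windows. The end of CCGGAAG and the start of AAGATGG are the same 3 letters, so a window can hold both in overlap. A match is a string of letters in a window and not a bound site. The median input log2 ratio, shRBM39 over shControl, was -0.03 both for the members with the ETS letters and for those without.

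Windows that overlap no annotated gene are shown for MRPL1, MRPS15, MRPL20 and MRPL51. MRPL1 had the highest and MRPS15 the lowest input ratio among members with such a window and with pseudogene copies under 1%. MRPL20 and MRPL51 are the first 2 members by number of ETS sites. The last sequence is the 250 bases before MRPS11, part of the segment between MRPL46 and MRPS11 without the bases next to MRPL46. The 2 genes have 319 bases between their starts and lie on opposite strands of chromosome 15, with starts at 88467388 (MRPL46, minus strand) and 88467708 (MRPS11, plus strand). Capitals mark the ETS and NRF1 letters, and each sequence reads 5′ to 3′ on its strand. They lie at chr4:77862580-77862829 (plus strand, MRPL1), chr1:36464385-36464634 (minus strand, MRPS15), chr1:1407294-1407543 (minus strand, MRPL20), chr12:6493263-6493512 (minus strand, MRPL51) and chr15:88467458-88467707 (plus strand, MRPL46 and MRPS11).
MRPL1: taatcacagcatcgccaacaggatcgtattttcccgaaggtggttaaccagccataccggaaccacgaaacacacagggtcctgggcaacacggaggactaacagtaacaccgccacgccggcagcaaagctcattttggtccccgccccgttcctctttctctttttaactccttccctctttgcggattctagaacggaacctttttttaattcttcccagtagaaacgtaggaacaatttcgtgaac
MRPS15: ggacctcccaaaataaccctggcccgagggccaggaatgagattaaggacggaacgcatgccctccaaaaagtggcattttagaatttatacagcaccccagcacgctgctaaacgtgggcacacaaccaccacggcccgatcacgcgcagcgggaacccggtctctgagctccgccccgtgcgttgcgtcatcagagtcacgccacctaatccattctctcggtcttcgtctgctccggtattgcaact
MRPL20: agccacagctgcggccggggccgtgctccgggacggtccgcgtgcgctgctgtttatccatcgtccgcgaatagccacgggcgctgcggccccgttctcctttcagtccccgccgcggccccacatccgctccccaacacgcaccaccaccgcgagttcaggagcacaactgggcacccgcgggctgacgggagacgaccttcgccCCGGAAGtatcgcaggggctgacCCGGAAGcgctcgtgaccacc
MRPL51: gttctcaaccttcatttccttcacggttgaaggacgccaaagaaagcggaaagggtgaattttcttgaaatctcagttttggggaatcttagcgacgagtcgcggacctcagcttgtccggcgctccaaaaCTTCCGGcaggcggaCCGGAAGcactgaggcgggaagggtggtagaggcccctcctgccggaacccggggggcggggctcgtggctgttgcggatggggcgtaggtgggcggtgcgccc
MRPL46 and MRPS11: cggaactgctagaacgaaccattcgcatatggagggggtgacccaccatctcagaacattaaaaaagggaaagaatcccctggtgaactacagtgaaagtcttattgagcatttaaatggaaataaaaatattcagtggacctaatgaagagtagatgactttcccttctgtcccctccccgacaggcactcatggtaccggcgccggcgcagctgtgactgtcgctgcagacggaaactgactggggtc

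MRPL20 and MRPL51 hold 2 ETS sites each, and their inputs differed in opposite directions, at -0.29 (-0.40 to -0.18) and 0.39 (0.31 to 0.46). The windows of MRPL1, of MRPS15 and before MRPS11 hold neither string. MRPL46 and MRPS11, which start on either side of that segment (MRPS11 was named for it after its values were seen), had input ratios of -0.06 (-0.17 to 0.05) and 0.20 (0.12 to 0.29). Over input, MRPL46 was at 0.43 (0.34 to 0.53) in shRBM39 and 0.10 (0.01 to 0.19) in shControl cells and was not called (edgeR adjusted p = 0.179). MRPS11 was at 0.49 (0.42 to 0.56) in shRBM39 and 0.63 (0.56 to 0.70) in shControl cells and rose (edgeR adjusted p = 0.00814).

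Of the mitochondrial ribosomal proteins with other symbols, 5 were compared. AURKAIP1, a small subunit protein, had 198 CPM in the shRBM39 IP and 126 CPM in the shRBM39 input, and 261 CPM in the shControl IP and 121 CPM in the shControl input and rose in the IP (edgeR log2 0.88, adjusted p = 0.000494). GADD45GIP1, a large subunit protein, rose too (edgeR log2 0.58, adjusted p = 0.0137). The small subunit proteins DAP3, PTCD3 and CHCHD1 were not called, with edgeR log2 values of 0.16, 0.07 and -0.21. Thus 40% of the 5 rose and 0% fell, beside 19.2% and 17.6% of all features.

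The factors that assemble mitochondrial ribosomes had medians near those of the ribosomal proteins. For the 27 compared, the median log2 IP over input was 0.26 in shRBM39 and 0.38 in shControl cells, and edgeR called 10 higher and 0 lower, beside the same 19.2% and 17.6% of all features. RCC1L, which is needed for large subunit assembly, rose most (edgeR log2 0.95, adjusted p = 0.000153). ERAL1, a GTPase that binds the small subunit rRNA, rose (edgeR log2 0.88, adjusted p = 0.000141), as did METTL17 (log2 0.83, adjusted p = 0.002) and the GTPase MTG2 (log2 0.81, adjusted p = 0.000271). MALSU1, which binds MRPL14 on the large subunit, was at log2 -0.04 in shRBM39 and -0.13 in shControl cells, and MRPL14 at -0.04 and -0.07, none called.

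Of 17 translation factors of mitochondria 5 rose and 2 fell, beside 19.2% and 17.6% of all features. The elongation factors TUFM (edgeR log2 0.78, adjusted p = 0.00365), TSFM (log2 0.69, adjusted p = 0.00235) and GFM1 (log2 0.58, adjusted p = 0.00444) and the translational activator TACO1 (log2 0.68, adjusted p = 0.00137) rose, and so did the deformylase PDF (log2 0.49, adjusted p = 0.0416). The release factor MTRF1L (log2 -0.46, adjusted p = 0.0221) and the initiation factor MTIF3 (log2 -0.43, adjusted p = 0.026) fell. The list's median was 0.13 in shRBM39 and 0.25 in shControl cells.

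The mRNAs that the mitochondrial ribosome translates had far lower ratios than the mRNAs of its proteins. All 13 mitochondrially encoded mRNAs were over 2-fold lower in the IP in both cultures, with medians of -3.24 in shRBM39 and -4.83 in shControl cells. Of all features 9.00% were called lower in shRBM39 and 11.3% in shControl cells. The rRNA of the small subunit, MT-RNR1, was at -0.04 in shRBM39 and 0.17 in shControl cells. The rRNA of the large subunit, MT-RNR2, was at 0.17 and 0.73 there, and neither was called. In shControl cells the highest value of a mitochondrially encoded mRNA, -3.71, lay below the lowest MRP value, -0.79. The reason for this gap was not tested.

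The mRNAs of the cytosolic ribosomal proteins, 77 in all, had medians over input of 0.01 in shRBM39 and -0.15 in shControl cells. The edgeR fit called 1 higher and 11 lower (14.3%), beside 19.2% and 17.6% of all features. Calls in both directions were thus less frequent than over all features. The median difference of these 77 mRNAs between the cultures was 0.15, and their median input ratio -0.30. The MRP medians were on the other side of 0 in the difference, at -0.13, and nearer 0 in the input, at -0.02. The median difference was also below 0 for the assembly factors, at -0.14, for the translation factors, at -0.16, and for the genes of mitochondrial transcription and DNA maintenance, at -0.22. These medians were not tested against each other.

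**Figure D5:**
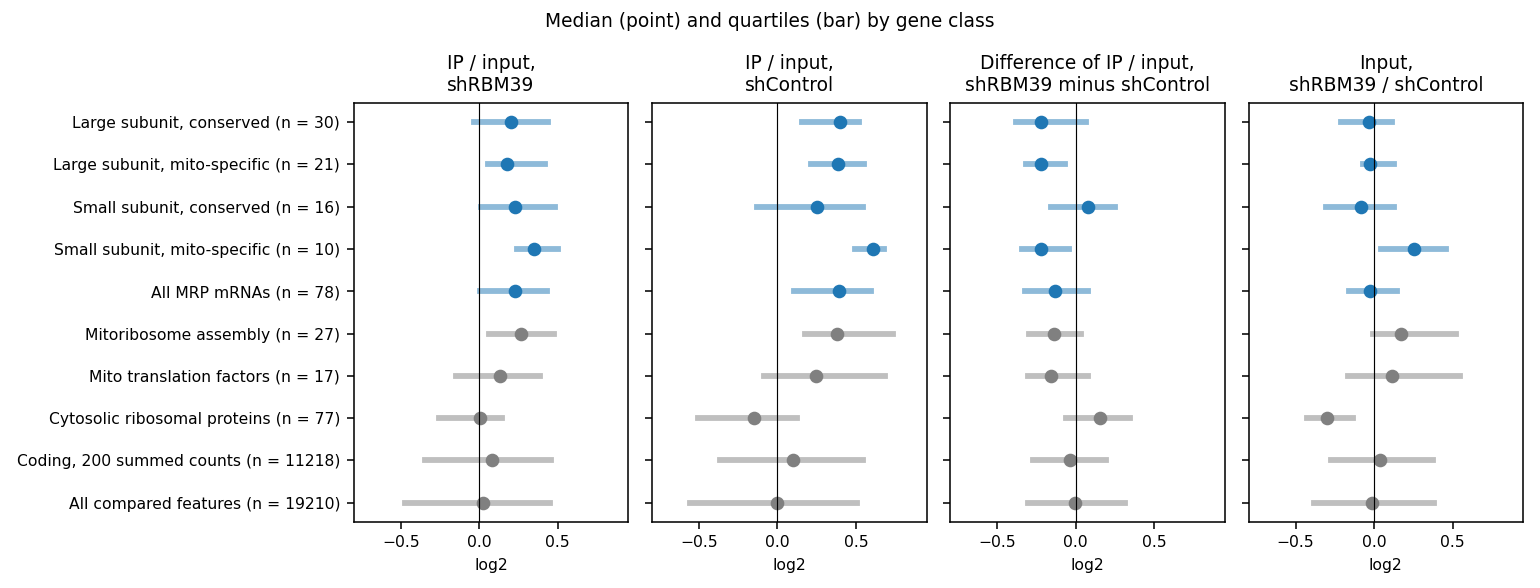
Median (point) and quartiles (bar) of the log2 ratios in 4 classes of MRP mRNAs, in all 78 MRP mRNAs (blue), and in other gene classes (grey), for IP over input in shRBM39 and shControl cells, their difference and the input ratio. The mitochondria-specific small subunit class has the highest medians over input, and the cytosolic ribosomal proteins have the lowest input median.

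Among the 45 members that overlap no annotated gene the medians over input were lower than over all members. They were 0.14 in shRBM39 and 0.35 in shControl cells, against 0.23 and 0.39 for all members. For the well-counted coding features they were 0.08 and 0.10. In shRBM39 cells the interval lay above equality for 26 and below it for 9, beside 43.0% and 33.4% of those coding features. In shControl cells it lay above for 34 and below for 7, beside 45.2% and 34.0%. In the edgeR fit 15 of the 45 rose (33.3%) and 4 fell (8.89%), beside 19.2% and 17.6% of all features. These 4 are all the members that fell.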

How the data were processed

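RNA was measured in 4 libraries of Huh7 cells, an RBM39 IP and an input from each of 2 cultures. The deposited values are raw read counts per gene, not normalized by the authors. The submitters' processing notes name cutadapt 1.9, HISAT2 2.0.4, StringTie 1.3.4d and the build hg38. What each tool did, which program counted reads, whether it used strand and which annotation it read are not stated in the labels or the file. Each of the 4 columns carries the name of 1 sample, and 0 columns belong to other samples.

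A feature was compared if it reached 10 counts in 2 or more libraries. Libraries were scaled by TMM (edgeR 4.0.16, R 4.3.3). Log2 ratios were taken after adding 0.5 to each count, with exact conditional 95% intervals, or with the counting standard error for the difference of ratios. A feature was called at 2-fold or more where the interval excluded equality. IP against input over both cultures was tested with edgeR's quasi-likelihood test, with culture as a term and Benjamini-Hochberg adjustment over all compared features at 0.05. DESeq2 1.42.0 was an alternative. The test was tried on simulated counts.

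The members and the lists of genes were chosen with earlier results of these data known. For each of the 4 pairwise comparisons the text draws on the 6 highest and 6 lowest members that reach 200 counts in sum, in the order of the interval bound closer to 0. It adds up to 10 members called in each direction by edgeR, a fixed set of paralogs and structural landmarks, and up to 4 genes of each other list. Names outside this rule were chosen after their values were seen. Upstream sequences and gene positions are RefSeq's on GRCh38.p14, and 77 of the 78 members matched by symbol. The motif letters were chosen after the data were seen. Alternatives were other scalings, filters, added counts and thresholds, halved counts, subunits by structure, no culture term, and each library left out.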

Additional observations from a re-analysis of the deposited data

Results flagged for a closer look

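In 4 members the IP lay above its input in one culture and below it in the other, with both counting intervals clear of equality. The share of all features that did so was not counted, so whether this is many or few for the members is not known. MRPL13 was at log2 -0.32 in shRBM39 and 0.34 in shControl cells. MRPL22, a protein beside the exit tunnel that was named here for this reason, was at -0.21 in shRBM39 and 0.29 in shControl cells. MRPL47 was at -0.17 in shRBM39 and 0.46 in shControl cells. MRPS5 was at 0.12 in shRBM39 and -0.34 in shControl cells. With 1 library per group the difference between the cultures was not tested.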

How the results depend on the processing

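The members' median over input stayed above that of all features under every filter and added count tried. Scaling and halved counts leave the distance between these medians unchanged by construction, so they could not test it. That distance ran from 0.18 to 0.41 in shRBM39 and from 0.34 to 0.65 in shControl cells. In shRBM39 cells, 1 member (MRPS30) was 2-fold lower with total counts, and 1 (MRPS12) higher without the filter, where the median was 0.35. In shControl cells 2 members (MRPL28 and MRPS18B) were 2-fold higher with total counts and 2 without the filter. At 1.5-fold, 9 members were higher and 3 lower over input in shRBM39 cells, beside 15.5% and 17.4% of all features, and 21 and 2 in shControl cells, beside 18.9% and 20.6%. There 0 were higher and 3 lower in the difference, beside 7.95% and 6.83%, and 4 higher and 1 lower in the input, beside 12.7% and 11.9%. The median difference was -0.33 with total counts, where the median of all features moved too. In the input, 1 member (MRPS31) was 2-fold higher with total counts, with upper quartile scaling and with at least 50 counts in all 4 libraries. The edgeR fit called 18 members higher with total counts. Of 23 named members called by edgeR, 19 kept the call with total counts, 19 with DESeq2 and 21 with at least 50 counts in all 4 libraries. The culture term is the hairpin label, shRBM39 or shControl, and not a block of replicates. Without it 0 members were higher and 0 lower. Each library was also left out in turn. The fits of 3 libraries also lack the culture term, since both terms would leave no residual degree of freedom, so they change 2 choices at once and compare IP with input across cultures. For MRPS9 the estimate in them ran from -0.0717 (without the shRBM39 IP) to 0.997 (without the shRBM39 input) and was -0.0415 without the shControl input, against 0.42 with all libraries and the culture term. Depth limits members of few counts, whose intervals reached 0.36 on either side over input, against a median of 0.12 in shRBM39 cells.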

Other observations

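POLRMT, the RNA polymerase of mitochondria, had 105 CPM in the shRBM39 IP and 48.3 CPM in the shRBM39 input, and 63.4 CPM in the shControl IP and 25 CPM in the shControl input. It stood over 2-fold above input in both cultures and was called by edgeR (log2 1.23, adjusted p = 6.49e-06), above the value of each MRP mRNA. POLG, the catalytic subunit of the mitochondrial DNA polymerase, rose as well (edgeR log2 0.63, adjusted p = 0.00279). The other 7 compared genes of mitochondrial transcription and DNA replication were not called. Thus 22.2% of the 9 compared were called higher and 0% lower, beside 19.2% and 17.6% of all features. Among them TFAM, which packs mitochondrial DNA, was at log2 -0.58 (-0.66 to -0.51) in shRBM39 and -0.05 (-0.12 to 0.02) in shControl cells. TFB2M, a transcription initiation factor, was at 1.11 (0.90 to 1.32) in the shRBM39 input over the shControl input.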
